A study of Mus musculus with 10 samples.

Results

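The amino acid catabolism enzymes described here were 9 genes, *Tat*, *Hpd*, *Hgd*, *Fah*, *Tdo2*, *Kynu*, *Hal*, *Sds* and *Gls2*, taken by gene symbol from the 24052 symbols listed in count tables of mouse liver. All 9 symbols were found. RNA sequencing was performed on 10 livers, 5 from wild-type (WT) mice and 5 from Ndrg3 LKO mice, with 1 library per liver. The LKO mice carried a floxed *Ndrg3* gene whose exon 4 was removed by a Cre transgene under the albumin promoter, which is active in hepatocytes. The paper describes the disruption as specific to hepatocytes, and whether other liver cells kept the gene was not tested here. Both groups are labelled C57BL/6, with the floxed line backcrossed to C57BL/6N, and were fed ad libitum, and no drug or diet was applied. The mice were 8 to 10 weeks old according to the methods and 10 to 12 weeks old according to a figure legend, and males were used unless the study stated otherwise. WT mice served as littermate controls. The final cross was of *Ndrg3* f/+; Alb-Cre with *Ndrg3* f/f mice, whose pups all inherit a floxed allele, and the genotype of the controls is not given beyond the name wild-type. The comparison asks which of these enzymes change in RNA abundance when hepatocytes lose *Ndrg3*.

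Hepatocytes degrade most of the amino acids that reach the liver from the gut and from muscle, and pass the nitrogen to urea and the carbon to glucose, ketone bodies or the citric acid cycle. Several of the enzymes are known to be induced by glucocorticoids and glucagon during fasting, and histidine, serine and glutamine breakdown is concentrated in periportal hepatocytes. *Tat*, *Hpd*, *Hgd* and *Fah* act one after another on tyrosine. *Tdo2* and *Kynu* act on tryptophan and its product kynurenine, *Hal* opens histidine breakdown, *Sds* turns serine into pyruvate and ammonia, and *Gls2* releases ammonia from glutamine.

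In the GENCODE annotation of mm9 (NCBIM37), the tyrosine enzymes lie on 4 chromosomes, *Tat* on chromosome 8 from 112514337 to 112523703, *Hpd* on chromosome 5 from 123621816 to 123632734, *Hgd* on chromosome 16 from 37580239 to 37632106 and *Fah* on chromosome 7 from 91733669 to 91755232. *Tdo2* lies on chromosome 3 from 81761012 to 81780124 and *Kynu* on chromosome 2 from 43410849 to 43538235. *Hal* occupies 92951513 to 92982049 and *Gls2* 127631513 to 127647060 on chromosome 10, and *Sds* 120926540 to 120933941 on chromosome 5. RefSeq promoter windows of GRCm38.p6, from 250 bases before to 50 bases after the transcription start, were matched for 6 of the 9 genes (*Hal*, *Tat*, *Tdo2*, *Hpd*, *Hgd* and *Fah*) and not for *Sds*, *Kynu* and *Gls2*. The windows of *Hal*, *Tat* and *Tdo2* are printed because these 3 genes had the largest falls once Ndrg3 LKO replicate 5 was left out. The *Hal* window is chr10:93488518-93488817 on the plus strand, the *Tat* window chr8:109990186-109990485 on the plus strand and the *Tdo2* window chr3:81975679-81975978 on the minus strand, each written 5′ to 3′ along the gene.
Hal: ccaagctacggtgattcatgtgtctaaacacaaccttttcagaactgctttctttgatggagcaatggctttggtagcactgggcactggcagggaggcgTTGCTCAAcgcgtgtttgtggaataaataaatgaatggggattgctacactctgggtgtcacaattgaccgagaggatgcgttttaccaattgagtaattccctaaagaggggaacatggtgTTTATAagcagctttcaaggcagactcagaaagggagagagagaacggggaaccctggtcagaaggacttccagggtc
Tat: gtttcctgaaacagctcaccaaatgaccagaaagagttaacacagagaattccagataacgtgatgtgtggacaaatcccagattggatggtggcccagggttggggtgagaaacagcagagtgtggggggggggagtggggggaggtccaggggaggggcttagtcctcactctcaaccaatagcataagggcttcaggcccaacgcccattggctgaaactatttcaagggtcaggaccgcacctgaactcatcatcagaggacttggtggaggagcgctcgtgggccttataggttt
Tdo2: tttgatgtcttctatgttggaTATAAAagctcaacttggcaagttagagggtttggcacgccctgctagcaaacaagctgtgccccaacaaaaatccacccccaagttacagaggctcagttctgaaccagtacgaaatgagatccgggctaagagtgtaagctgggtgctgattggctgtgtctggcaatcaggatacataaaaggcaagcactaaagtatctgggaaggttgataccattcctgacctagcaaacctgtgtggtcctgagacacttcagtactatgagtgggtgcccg
Capitals mark the letters of a motif searched on both strands. The motifs were TATAAA (a core promoter box), TTGCNNAA (C/EBP), AGAACA (1 arm of a glucocorticoid response element), TGACGTCA (cAMP response element) and TGACG (the first arm of that element, so the matches overlap), GTTAAT (1 arm of an HNF1 site) and CAAAGTCCA (HNF4). *Hal* held TTGCNNAA 150 bases before the start on the gene strand and TATAAA 28 bases before it on the other strand, and *Tdo2* held TATAAA 229 bases before the start. No letters were marked in the *Tat* window, and sequence outside the windows was not searched for any gene. TATAAA occurred in 3 of the 6 windows (*Hal*, *Hgd* and *Tdo2*) and in 13.6% of 32851 RefSeq windows of the same length, and TTGCNNAA in 2 of the 6 (*Hal* and *Hgd*) and in 10.8% of all windows. The remaining motifs were in 0 of the 6 windows and, of all windows, in 19.0% for the glucocorticoid arm, 20.8% for the cAMP arm, 1.79% for the whole cAMP element, 7.10% for the HNF1 arm and 0.475% for HNF4.

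Counts per liver ranged from 20872262 to 24747870 in WT and from 23474693 to 30450057 in Ndrg3 LKO, and 3 counts, taken as the smallest readable signal, correspond to 0.0985 to 0.144 CPM, that is counts scaled to a common library total. Values below are CPM after library sizes were adjusted with edgeR's TMM method. *Ndrg3* itself was between 15.9 and 21.9 CPM in WT livers and between 7.07 and 9.15 in all 5 Ndrg3 LKO livers, with Ndrg3 LKO replicate 5 at 8.25, so every library matched its label for the targeted gene (log2 fold change -1.20 ± 0.13, edgeR adjusted p = 3.87e-05). In other respects Ndrg3 LKO replicate 5 stood apart from its group. The 20 most abundant genes took 26.2 to 28.0% of counts in WT livers, 16.3 to 17.3% in Ndrg3 LKO replicates 1 to 4 and 26.6% in replicate 5, and on the first principal component (68.7% of the variance) WT livers lay between -49.9 and -43.1, Ndrg3 LKO replicates 1 to 4 between 51.1 and 56.6 and replicate 5 at 14.1. The paper displays fewer Ndrg3 LKO livers for these data than were deposited and does not say which was left out, and the labels and methods set none apart. Tests of the enzymes and their pathway genes are therefore given with and without this liver. It was singled out from these same data, and it was the highest Ndrg3 LKO liver for all 9 enzymes. Leaving it out thus lowers the group mean of each enzyme and narrows its spread, and p-values without it are descriptive only. P-values measure the spread between these livers, and in whole liver RNA fewer cells of a type and less RNA per cell cannot be told apart.

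Ndrg3 LKO livers held less RNA of 5 of the 9 enzymes by the test over all livers, and of 8 of the 9 without Ndrg3 LKO replicate 5. Log2 fold changes are written ± their standard error, and permutation tests are 2-sided. *Tat*, *Tdo2*, *Hpd*, *Fah* and *Kynu* fell, with log2 fold changes from -1.92 to -0.91, 0 enzymes rose, and *Hal*, *Sds*, *Hgd* and *Gls2* did not pass an edgeR adjusted p of 0.05. All 9 genes passed the filter of at least 1 CPM in at least 5 livers. Changes were common in these livers, and the counts are read against that background: of 11208 genes tested, 48.6% passed in either direction, 23.0% lower and 25.6% higher. The 5 of 9 enzymes that fell thus compare with 23.0% of all genes, and the median log2 fold change was -1.07 for the enzymes and 0.031 for all genes tested. The enzymes were chosen with earlier results of these data known, so comparisons with the shares of all genes are descriptive only. For 4 enzymes (*Tdo2*, *Hpd*, *Fah* and *Kynu*) the whole Ndrg3 LKO group lay below all WT livers, a pattern seen in 16.0% of all genes, and for 0 enzymes did it lie above them, a pattern seen in 15.5%. Without Ndrg3 LKO replicate 5, *Hal*, *Sds* and *Hgd* joined the 5, so that 8 of 9 enzymes fell against 27.2% of 11446 genes, 0 rose against 28.4%, and the median log2 fold change was -1.42. In these 9 livers the groups did not overlap for the same 8 genes, against 22.3% of all genes that lay lower without overlap.

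**Figure D1:**
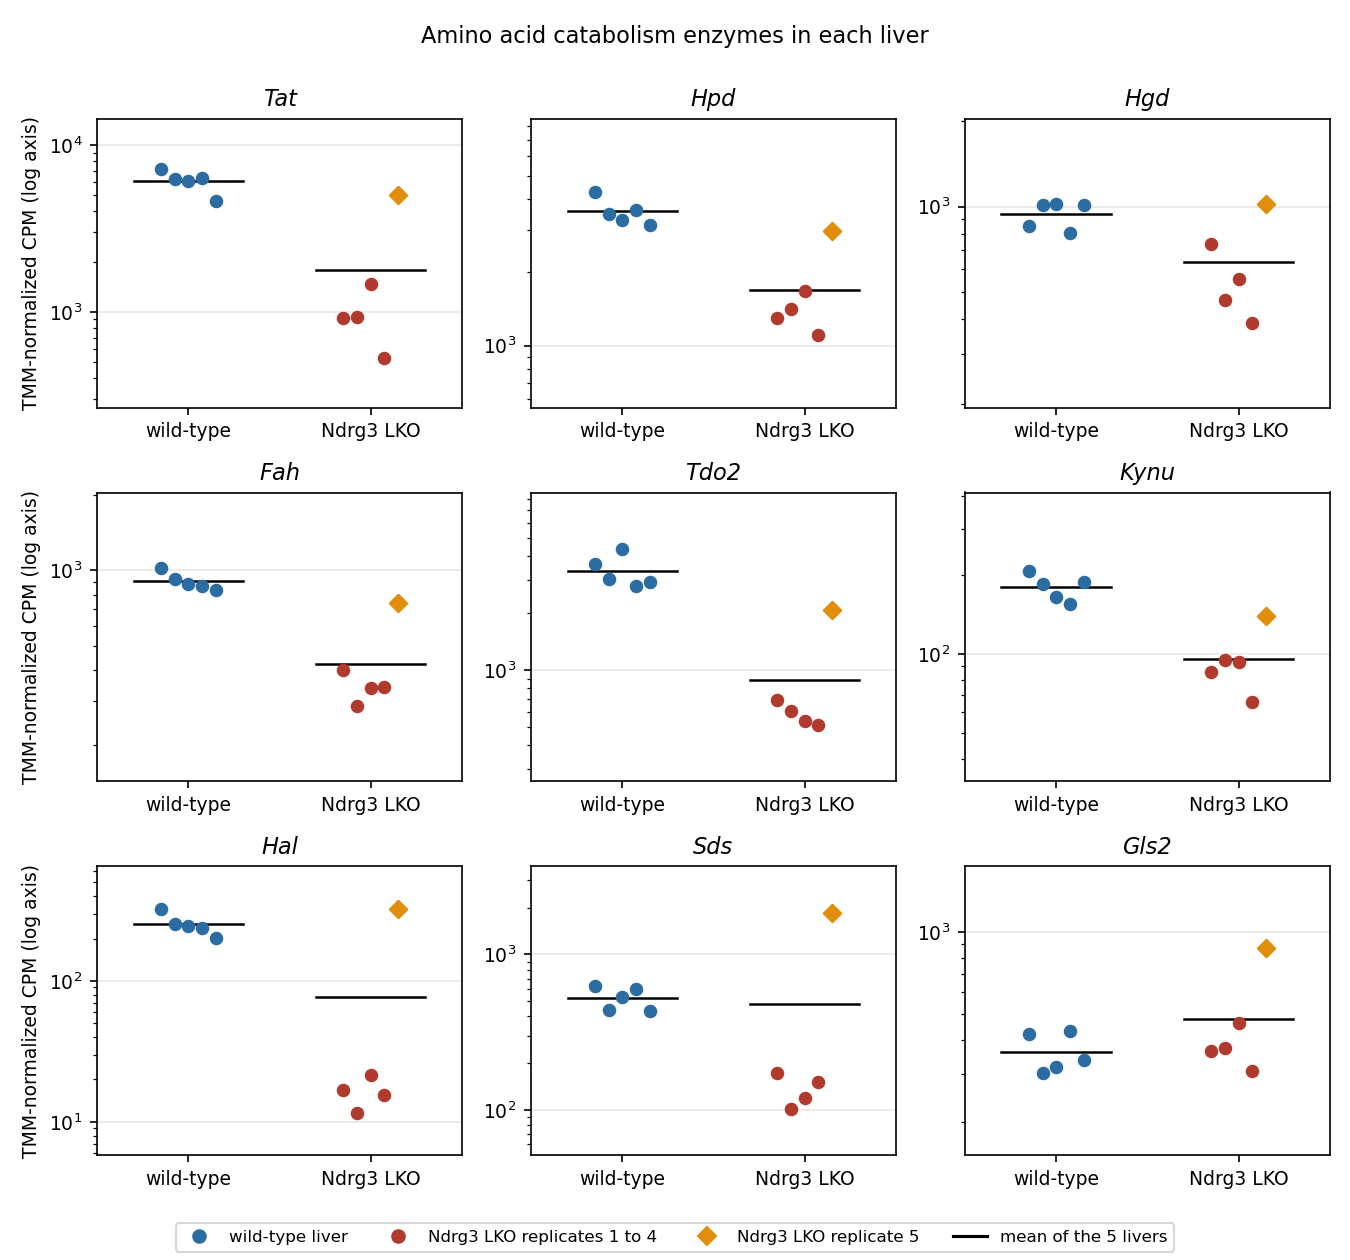
TMM-normalized CPM (log axis) of each enzyme in the 5 wild-type and 5 Ndrg3 LKO livers, with a line at the mean of each group. Ndrg3 LKO replicates 1 to 4 lie below every wild-type liver for 8 of the 9 enzymes, all but *Gls2*, and Ndrg3 LKO replicate 5 lies above the other 4 Ndrg3 LKO livers for all 9 enzymes.

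*Tat* encodes tyrosine aminotransferase, which removes the amino group of tyrosine in the first step of its breakdown. WT livers had 7203, 6225, 6072, 6322 and 4606 CPM, and Ndrg3 LKO livers had 913, 934, 1465, 532 and 5016 CPM, in the order of replicates 1 to 5. The first 4 Ndrg3 LKO livers lay far below every WT liver, and replicate 5 lay within the WT range, above WT replicate 5. The mean was 6086 ± 937 CPM in WT and 1772 ± 1844 CPM in Ndrg3 LKO (SD, n = 5 each), and *Tat* fell by 1.78 ± 0.52 on the log2 scale (edgeR adjusted p = 0.0145, exact permutation p = 0.0159). Without Ndrg3 LKO replicate 5 the mean of the group was 961 ± 384 CPM (SD, n = 4), the WT mean was 6.33-fold higher, and the log2 fold change became -2.67 ± 0.28 (edgeR adjusted p = 1.15e-05).

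The next tyrosine enzyme, 4-hydroxyphenylpyruvate dioxygenase, is encoded by *Hpd*. WT livers had 4290, 3487, 3291, 3605 and 3138 CPM of *Hpd*, against 1295, 1410, 1683, 1110 and 2956 CPM in Ndrg3 LKO livers. The groups did not overlap, although Ndrg3 LKO replicate 5 came close to the lowest WT liver. *Hpd* fell by 1.07 ± 0.26 on the log2 scale in all livers (edgeR adjusted p = 0.00537, exact permutation p = 0.00794, the smallest that 5 livers against 5 allow), and without replicate 5 its log2 fold change was -1.38 ± 0.17 (edgeR adjusted p = 3.98e-05). Quantile-normalized values gave a smaller difference that did not pass (log2 fold change -0.40, limma adjusted p = 0.0994).

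Homogentisate 1,2-dioxygenase, encoded by *Hgd*, follows HPD in the pathway. *Hgd* was at 857, 1010, 1022, 805 and 1011 CPM in WT and at 736, 469, 554, 389 and 1022 CPM in Ndrg3 LKO livers. Replicates 1 to 4 of Ndrg3 LKO lay below every WT liver, and replicate 5 was level with the highest WT liver. The difference of -0.57 ± 0.24 on the log2 scale did not pass in all 10 livers (edgeR adjusted p = 0.0718, exact permutation p = 0.0556), and without replicate 5 it was -0.82 ± 0.19 and passed (edgeR adjusted p = 0.00311). *Fah*, which encodes fumarylacetoacetate hydrolase, the enzyme that ends tyrosine breakdown, had 1026, 927, 885, 867 and 837 CPM in WT and 400, 286, 339, 341 and 744 CPM in Ndrg3 LKO livers. The groups did not overlap. *Fah* fell by 1.11 ± 0.24 on the log2 scale (edgeR adjusted p = 0.00317, exact permutation p = 0.00794), and its log2 fold change without replicate 5 was -1.42 ± 0.14 (edgeR adjusted p = 9.11e-06). In Ndrg3 LKO replicates 1 to 4 the falls along the tyrosine route were therefore unequal, as the WT mean was 6.33-fold above these livers for *Tat*, 2.59-fold for *Hpd*, 1.75-fold for *Hgd* and 2.66-fold for *Fah*.

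*Tdo2* encodes tryptophan 2,3-dioxygenase, the hepatic enzyme that opens the kynurenine pathway. Its levels were 3654, 3032, 4348, 2767 and 2936 CPM in WT and 692, 609, 537, 515 and 2083 CPM in Ndrg3 LKO livers. The groups did not overlap, with replicate 5 between the rest of its group and WT. *Tdo2* had a log2 fold change of -1.92 ± 0.39 (edgeR adjusted p = 0.00193, exact permutation p = 0.00794) and of -2.52 ± 0.19 without replicate 5 (edgeR adjusted p = 1.06e-06), when the WT mean was 5.69-fold higher. In its promoter window, printed above, the TATAAA letters lie 229 bases before the start.

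*Kynu* encodes kynureninase, which cleaves kynurenine and 3-hydroxykynurenine further along the same route. It was at 207, 185, 166, 156 and 189 CPM in WT and 85.8, 95.2, 93.1, 65.5 and 140 CPM in Ndrg3 LKO livers. The groups did not overlap, and replicate 5 was again the highest of the Ndrg3 LKO livers. *Kynu* fell by 0.91 ± 0.19 on the log2 scale (edgeR adjusted p = 0.00201, exact permutation p = 0.00794), with a log2 fold change of -1.10 ± 0.15 without replicate 5 (edgeR adjusted p = 7.28e-05). Replicate 5 reached 0.622 of the WT mean for *Tdo2* and 0.778 for *Kynu*, the lowest shares of the 9 enzymes in that liver.

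*Hal* encodes histidine ammonia-lyase, which converts histidine to urocanate. WT livers had 326, 253, 245, 238 and 202 CPM, whereas Ndrg3 LKO livers had 16.9, 11.6, 21.7, 15.6 and 322 CPM. Relative to WT, the mean of the first 4 Ndrg3 LKO livers was lower for *Hal* than for any other of the 9 enzymes, and replicate 5 was above 4 of the 5 WT livers. In counts as deposited, replicates 1 to 4 held 588, 479, 843 and 547 reads of *Hal* and replicate 5 held 6822, so the low values were far above the 3-count floor. In all 10 livers the log2 fold change of -1.71 ± 0.85 had a wide error and did not pass (edgeR adjusted p = 0.115), while the exact permutation test on log2 values gave p = 0.0397. Without replicate 5 it was -3.95 ± 0.22 (edgeR adjusted p = 1.47e-07), when the WT mean of 253 ± 45.3 CPM (SD, n = 5) was 15.4-fold above the Ndrg3 LKO mean of 16.4 ± 4.15 CPM (SD, n = 4). On log2(CPM + 1) values limma called the fall in all 10 livers as well (log2 fold change -3.03, limma adjusted p = 0.00424).

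*Sds* encodes serine dehydratase, which deaminates serine to pyruvate for glucose synthesis. It had 630, 441, 534, 604 and 432 CPM in WT livers and 172, 102, 120, 152 and 1849 CPM in Ndrg3 LKO livers. Replicates 1 to 4 of Ndrg3 LKO lay below every WT liver, and replicate 5 lay above every liver of either group, at 3.50-fold the WT mean and 13.5-fold the mean of the other Ndrg3 LKO livers. The group means were 528 ± 90.7 and 479 ± 766 CPM (SD, n = 5 each), and no difference could be read over all 10 livers (log2 fold change -0.14 ± 0.73, edgeR adjusted p = 0.888, exact permutation p = 0.167). Without replicate 5 *Sds* fell, with a log2 fold change of -1.96 ± 0.19 (edgeR adjusted p = 8.64e-06). Exons of *Sds* overlap those of *Plbd2* and *Gm15690* on the opposite strand, and the strand setting of the counting is not given in the sources used here. *Plbd2*, named after its values were seen, had 50.8 to 61.1 CPM in the 5 Ndrg3 LKO livers, with replicate 5 at 59.5. In WT it had 59.6 to 89.1 CPM. *Gm15690* was not among the symbols counted, and whether reads of overlapping genes entered the *Sds* counts was not tested.

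*Gls2* encodes the liver form of glutaminase, which supplies ammonia to urea synthesis, and it was the 1 enzyme without lower levels in Ndrg3 LKO replicates 1 to 4. WT livers had 422, 302, 319, 433 and 339 CPM, and Ndrg3 LKO livers had 364, 376, 463, 308 and 871 CPM. The first 4 Ndrg3 LKO livers spread over the WT range, with replicate 3 slightly above it, and replicate 5 was 2.40-fold the WT mean. Its log2 fold change did not pass in all livers (0.39 ± 0.27, edgeR adjusted p = 0.240, exact permutation p = 0.365) or without replicate 5 (0.047 ± 0.16, edgeR adjusted p = 0.825). With libraries scaled by their totals alone the median over all genes moved to 0.561 on the log2 scale, and *Gls2* was called higher (0.84, edgeR adjusted p = 0.00427), or 0.28 relative to that median. The end of *Gls2* overlaps exons of *Spryd4* on the opposite strand, which was named after its values were seen. *Spryd4* had 35.1 to 38.3 CPM in WT, 44.4 to 52.8 CPM in Ndrg3 LKO replicates 1 to 4 and 34.0 CPM in replicate 5. Its log2 fold change was 0.35 (edgeR adjusted p = 0.0362), and 0.43 without replicate 5 (edgeR adjusted p = 0.00336).

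**Figure D2:**
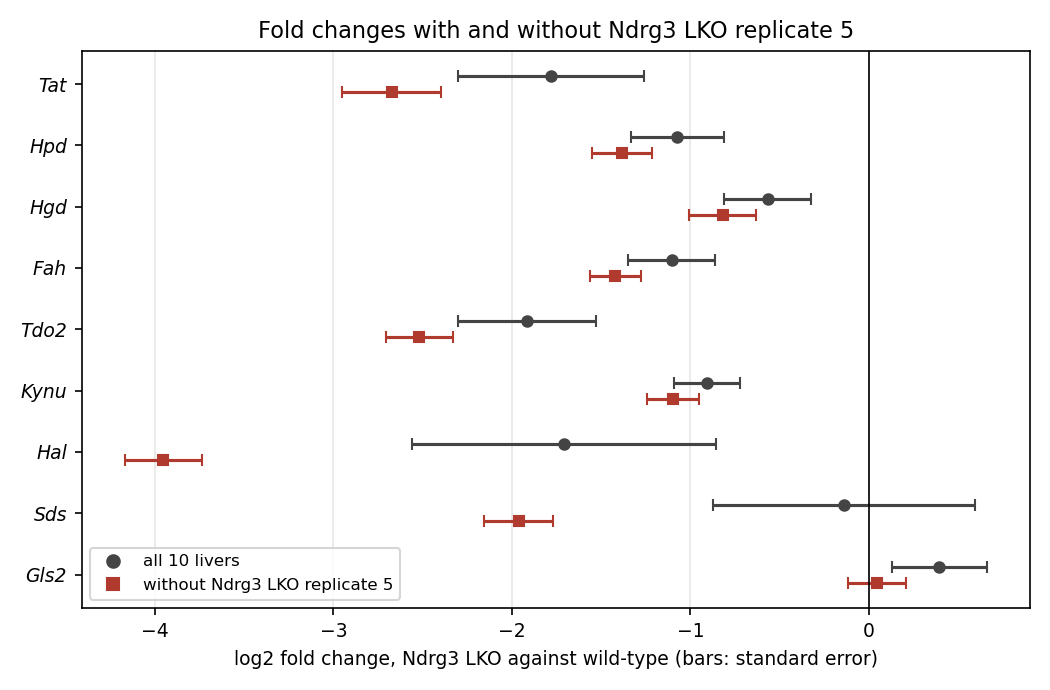
Log2 fold changes of the 9 enzymes, Ndrg3 LKO against wild-type, from edgeR's quasi-likelihood fit, with bars of 1 standard error. Without Ndrg3 LKO replicate 5 (squares) the estimates of 8 enzymes lie lower and have narrower errors than in all 10 livers (circles), and *Gls2* moves from 0.39 to 0.047.

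Ndrg3 LKO replicate 5 exceeded the other 4 livers of its group for 9 of 9 enzymes, a pattern found in 31.8% of all genes tested, but the size of the gap differed among enzymes. It was 19.6-fold the mean of the other 4 for *Hal*, 13.5-fold for *Sds*, 5.22-fold for *Tat* and 3.54-fold for *Tdo2*, and between 1.65-fold and 2.31-fold for *Kynu*, *Hgd*, *Hpd*, *Fah* and *Gls2*. Relative to WT, it stood below the mean for *Tat* (0.824 of it), *Hpd* (0.830), *Fah* (0.819), *Tdo2* and *Kynu*, and above it for *Hgd* (1.09), *Hal* (1.27), *Gls2* and *Sds*. Ratios of counts within a liver need no scaling between libraries, and only their change from liver to liver is read, since counts also depend on gene length. The 9 enzymes together took 1.10 to 1.51% of all counts in WT livers, 0.433 to 0.696% in Ndrg3 LKO replicates 1 to 4 and 1.36% in replicate 5. The *Tat* count was 5.50 to 7.29 times the *Fah* count in WT, 1.56 to 4.32 times in Ndrg3 LKO replicates 1 to 4 and 6.75 times in replicate 5, which thus resembled WT in that ratio. The *Sds* count was 1.74 to 2.53 times the *Hal* count in WT livers and 5.53 to 10.2 times in Ndrg3 LKO replicates 1 to 4. Replicate 5, at 5.75, lay in the range of its group, but from unlike levels. Both genes were above the WT mean in replicate 5 and below every WT liver in replicates 1 to 4. These ratios were picked with the values in view and were not tested.

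**Figure D3:**
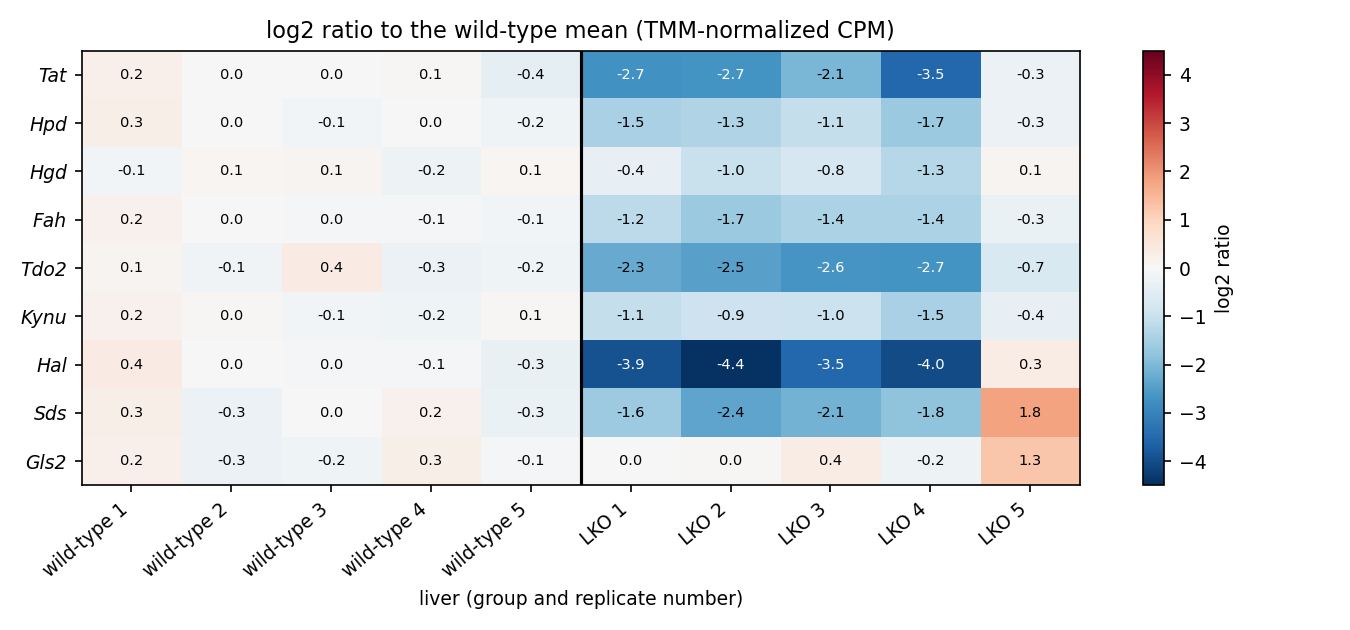
Log2 ratio of each liver's TMM-normalized CPM to the wild-type mean of the same enzyme, with enzymes in rows and livers in columns. Blue cells, below the wild-type mean, fill Ndrg3 LKO replicates 1 to 4 in the first 8 rows, whereas replicate 5 is near 0 in most rows and red for *Sds* and *Gls2*.

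The order of the enzymes by level was taken per length, as CPM per kilobase of exon. In WT livers the mean was 2530 for *Tat*, 1676 for *Hpd*, 867 for *Tdo2*, 432 for *Fah*, 360 for *Hgd*, 327 for *Sds*, 105 for *Gls2*, 45.5 for *Hal* and 24.2 for *Kynu*. Neighbours in this order whose ranges over the 5 WT livers overlapped were *Tat* and *Hpd* (1915 to 2995 and 1476 to 2018) and *Hgd* and *Sds* (308 to 391 and 268 to 391). *Fah* lay just above *Hgd*, with a lowest value of 398. In Ndrg3 LKO replicates 1 to 4 *Hpd* led at 647 and *Tat* followed at 399, with ranges of 522 to 792 and 221 to 609 that overlapped, and *Hal* was the lowest at 2.96 against 11.4 for *Kynu*. In replicate 5 *Tat* (2086) and *Hpd* (1390) led again, and *Sds* (1146) came next, ahead of *Tdo2* (540).

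The other genes of amino acid breakdown were examined from a list of 62 genes, of which 60 were tested. In all 10 livers 32 fell, 5 rose and 23 did not pass, with a median log2 fold change of -0.69, and without Ndrg3 LKO replicate 5, 42 fell and 6 rose, with a median of -0.88. Of all genes tested, 23.0% fell and 25.6% rose in the 10 livers, and 27.2% fell and 28.4% rose without that liver. Counts by amino acid below are read against these shares, and a small group near them says nothing particular about its pathway. With libraries scaled by their totals alone, 22 fell and 15 rose, against 32 and 5 with TMM. The genes nearest to the 9 enzymes in their pathways did not all follow them. Around the tyrosine enzymes, *Gstz1*, whose enzyme acts between HGD and FAH, fell by 1.04 on the log2 scale (edgeR adjusted p = 0.00129), with -1.27 without replicate 5 (edgeR adjusted p = 9.78e-06). Of the 4 phenylalanine and tyrosine genes beyond the 9 enzymes, 1 fell, and 3 fell without replicate 5. *Hpdl*, a relative of *Hpd*, failed the filter, with 3 to 25 counts per liver.

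Tryptophan and kynurenine genes had the lowest median log2 fold change of the 8 amino acid groups, -1.67, with 6 of 9 lower and 1 higher, and 8 lower and 1 higher without Ndrg3 LKO replicate 5. The shares of all genes that fell were 23.0% and, without that liver, 27.2%. *Ido2*, a relative of *Tdo2* in function, was at 60.9 to 110 CPM in WT, at 1.28 to 2.44 CPM in Ndrg3 LKO replicates 1 to 4 and at 35.1 CPM in replicate 5. Its log2 fold change was -3.29 ± 0.84 (edgeR adjusted p = 0.00729), and without replicate 5 it was -5.31 (edgeR adjusted p = 8.80e-08). *Ido1* was at 0 or 1 count in every liver and was not tested. *Kmo*, which hydroxylates kynurenine, and *Haao*, which acts after kynureninase, had log2 fold changes of -1.67 (edgeR adjusted p = 4.24e-05) and -1.52 (edgeR adjusted p = 0.00302), and *Aadat*, a kynurenine aminotransferase, of -2.13 ± 0.18 (edgeR adjusted p = 8.50e-06). Without replicate 5 these 3 values were -1.89 for *Kmo* (edgeR adjusted p = 2.48e-07), -1.98 for *Haao* (edgeR adjusted p = 9.28e-06) and -2.22 for *Aadat* (edgeR adjusted p = 1.74e-06). *Qprt*, which directs quinolinate into NAD synthesis, was the 1 gene of this route that rose, from 122 to 148 CPM in WT to 222 to 264 CPM in Ndrg3 LKO livers, replicate 5 included (log2 fold change 0.83 ± 0.12, edgeR adjusted p = 2.33e-04, and 0.82 without replicate 5, edgeR adjusted p = 1.26e-04).

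After *Hal*, histidine breakdown continues through *Uroc1*, *Amdhd1* and *Ftcd*, of which *Ftcd* fell. *Ftcd* was at 387 to 591 CPM in WT and at 92.4 to 144 CPM in Ndrg3 LKO replicates 1 to 4, with replicate 5 at 374 (log2 fold change -1.49, edgeR adjusted p = 0.00482, and -2.04 without replicate 5, edgeR adjusted p = 4.18e-06). *Uroc1* had a log2 fold change of -0.11 (edgeR adjusted p = 0.743) and *Amdhd1* of -0.10 (edgeR adjusted p = 0.802), and without replicate 5 these were -0.30 (edgeR adjusted p = 0.303) and -0.58 (edgeR adjusted p = 0.00410). *Amdhd1* lies on the same chromosome as *Hal*, at 92986083 to 93002778 on the opposite strand, and in replicates 1 to 4 its mean was 74.1 CPM against 110 in WT, whereas *Hal* was 15.4-fold lower there. *Sdsl*, which encodes a relative of serine dehydratase, had a log2 fold change of -0.66 (edgeR adjusted p = 0.203) and of -1.34 without replicate 5 (edgeR adjusted p = 4.26e-04), and like *Sds* was highest in replicate 5, at 64.7 CPM against 31.3 to 47.6 in WT. Of the 8 serine, threonine and glycine genes tested, 2 fell and 0 rose in all livers, and 5 fell without replicate 5. The 2 of 8 lies near the 23.0% of all genes that fell, a share that was 27.2% without replicate 5.

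Genes of glutamine, glutamate, aspartate and alanine were mixed, with 2 of 7 lower and 3 higher, the same counts as without replicate 5. Among all genes, 23.0% were lower and 25.6% higher, and 27.2% and 28.4% without replicate 5, so the 2 of 7 lies near the share of all genes. *Glul*, which encodes glutamine synthetase of pericentral hepatocytes and so makes what *Gls2* breaks down, was at 1330 to 1634 CPM in WT and at 102 to 151 CPM in the Ndrg3 LKO livers. It fell by 3.60 ± 0.18 on the log2 scale (edgeR adjusted p = 5.41e-07, and -3.55 without replicate 5, edgeR adjusted p = 8.80e-08). Ndrg3 LKO replicate 5 was low as well, at 102 CPM of *Glul* against 111 to 151 CPM in replicates 1 to 4. *Glud1*, glutamate dehydrogenase, had a log2 fold change of 0.63 ± 0.19 (edgeR adjusted p = 0.0172), and of 0.74 without replicate 5 (edgeR adjusted p = 0.00120). Of the 19 branched-chain amino acid genes 14 fell and 0 rose, of the 4 lysine genes 4 fell, and of the 6 proline, ornithine and arginine genes 2 fell and 1 rose. Without replicate 5, 15 branched-chain genes fell and 1 rose, 4 lysine genes fell, and 3 proline, ornithine and arginine genes fell and 1 rose.

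**Figure D4:**
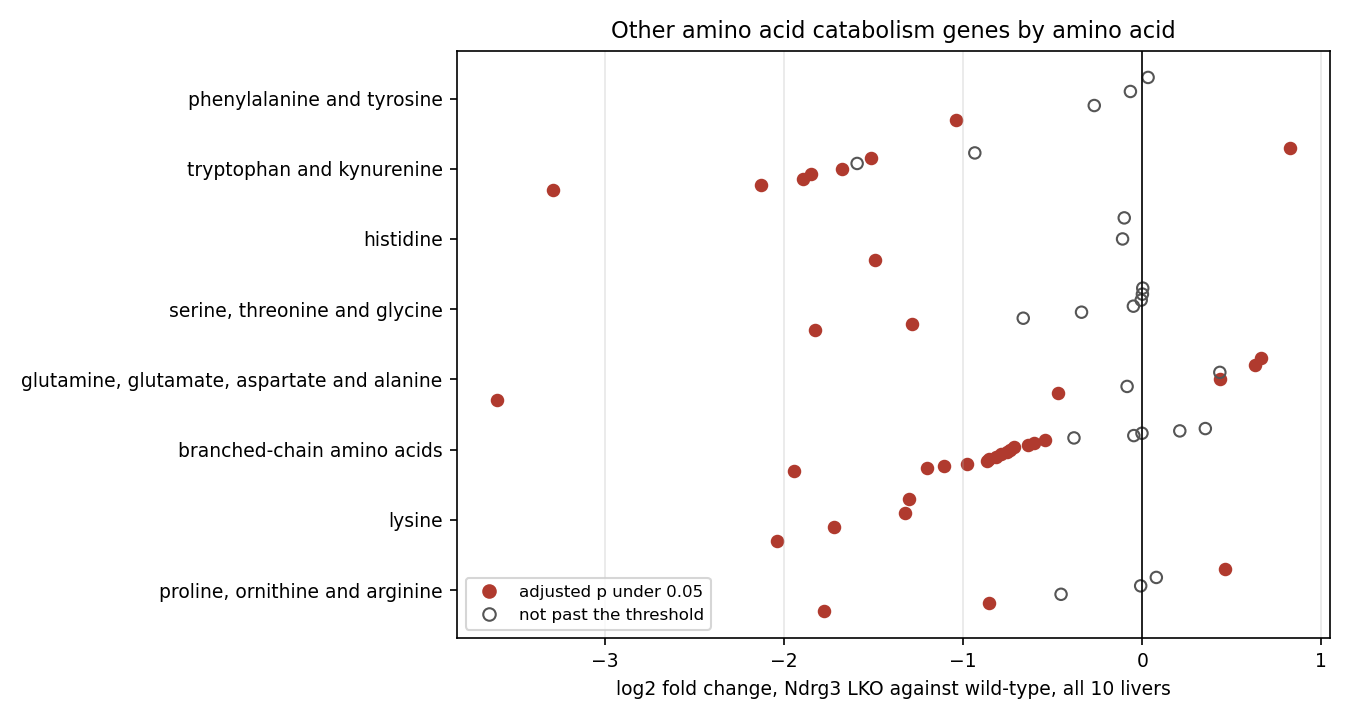
Log2 fold change in all 10 livers of the 60 other amino acid catabolism genes tested, 1 point per gene, grouped by amino acid. Filled points passed an edgeR adjusted p of 0.05. The tryptophan and kynurenine, branched-chain and lysine groups hold mostly filled points left of 0, and the glutamine group has 3 filled points right of 0.

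General hepatocyte genes mostly fell, like most of the enzymes, whereas markers of several other liver cell types rose. The summed level of 11 general hepatocyte genes was 146800 to 183500 CPM in WT, 38550 to 47740 CPM in Ndrg3 LKO replicates 1 to 4 and 159100 CPM in replicate 5, and 9 of the 11 fell and 0 rose in all livers (median log2 fold change -1.30, and -1.56 without replicate 5, when 11 fell). Markers of other cells were higher, in 8 of 8 genes for Kupffer cells and macrophages (81.2 to 207 CPM in WT, 184 to 573 CPM in Ndrg3 LKO replicates 1 to 4, 240 CPM in replicate 5), 5 of 6 for endothelial cells (49.4 to 63.8, 104 to 140 and 99.0 CPM), 5 of 6 for stellate cells and fibroblasts (91.5 to 146, 213 to 272 and 206 CPM) and 2 of 2 tested of 9 other leukocyte markers (14.4 to 28.8, 26.4 to 83.0 and 47.4 CPM). The numbers of these markers that rose were the same without replicate 5. Among all genes tested, 23.0% fell and 25.6% rose, and 27.2% and 28.4% without replicate 5. Of 5 biliary markers 1 rose and 1 fell, and 2 rose and 1 fell without replicate 5. Of 5 red blood cell genes, 4 were listed at 0 in every liver and *Alas2* fell. The hepatocyte sum is mostly *Alb*, at 108000 CPM in replicate 5, and gene by gene replicate 5 was mixed. It lay below every WT liver for 7 of the 11 genes (*Apoa1*, *Apob*, *Fga*, *Fgb*, *Fgg*, *Serpinc1* and *Hnf4a*, the last at 362 CPM against 590 to 793 in WT), above every WT liver for *Apoh* and *Ahsg*, and within the WT range for *Alb* and *Ttr*. It lay above every WT liver for 6 of 8 Kupffer cell and macrophage markers, 5 of 6 endothelial markers and 5 of 6 stellate markers, and the part of cell composition in the levels of the enzymes was not tested. Of the 8 listed periportal hepatocyte genes 7 were tested and 2 fell (median log2 fold change -0.25, and -0.99 without replicate 5, when 4 fell). The 2 of 7 lies near the 23.0% of all genes that fell. Of 8 pericentral genes 4 fell and 1 rose (median -1.18), and 4 fell and 2 rose without replicate 5 (median -1.0), and their sum was 16370 to 18880 CPM in WT, 2891 to 3585 CPM in Ndrg3 LKO replicates 1 to 4 and 3214 CPM in replicate 5, which here did not resemble WT.

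**Figure D5:**
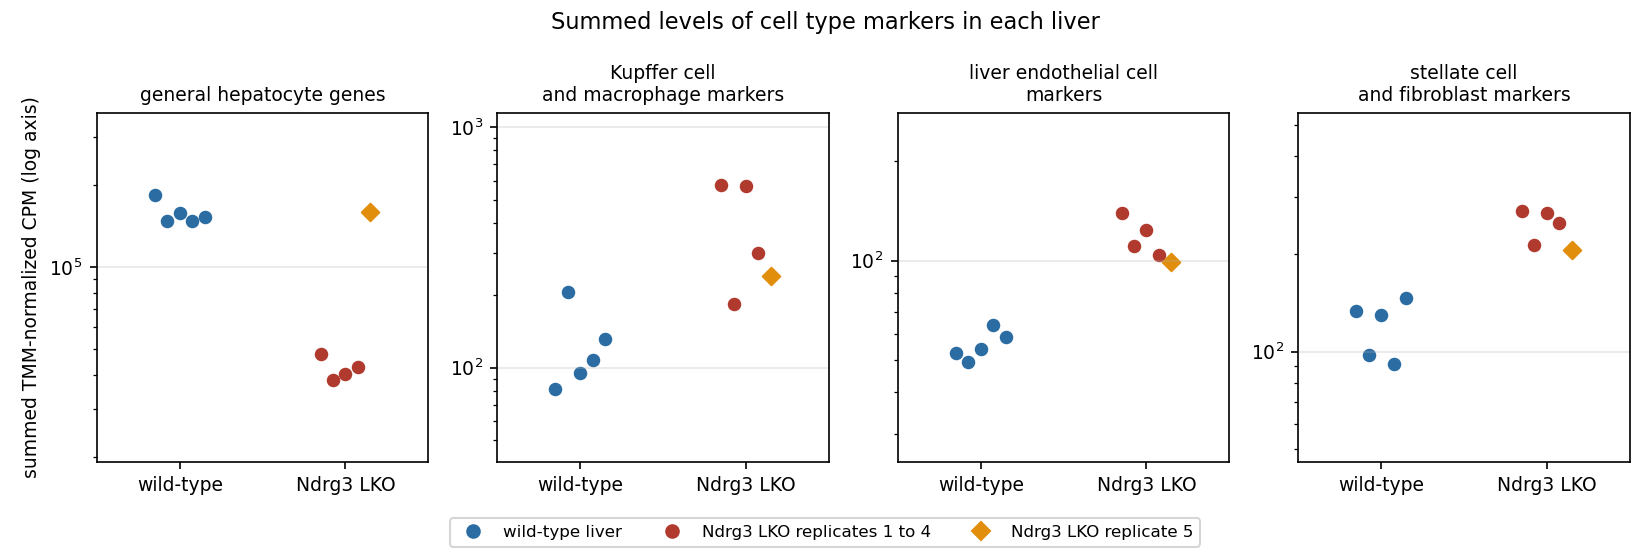
Summed TMM-normalized CPM (log axis) of 4 marker lists in the 5 wild-type and 5 Ndrg3 LKO livers. Ndrg3 LKO replicate 5 (diamond) lies among wild-type livers for the general hepatocyte sum, which is mostly *Alb*, and above every wild-type liver for the other 3 lists.

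The gene whose profile was most like that of each enzyme was sought by the root mean square difference of log2 values, each centred on its own mean over the 10 livers. None of the 9 nearest genes was another of the enzymes. *Hal* was nearest to *Acmsd* (difference 0.343, where *Hal* itself varied by 1.95), *Sds* to *Zap70* (0.365), *Tat* to *Slc43a1* (0.245), *Tdo2* to *Phyh* (0.179) and *Hpd* to *Rspry1* (0.147). The nearest genes of *Hgd*, *Fah*, *Kynu* and *Gls2* were *Nipsnap1* (0.127), *Abtb1* (0.105), *Gsto1* (0.0576) and *Ppp4r4* (0.212). *Acmsd*, a gene of the kynurenine pathway, had a like pattern, with 31.0 to 42.7 CPM in WT, 1.34 to 4.68 CPM in Ndrg3 LKO replicates 1 to 4 and 49.4 CPM in replicate 5.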

How the data were processed

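Gene expression was measured in 10 mouse livers, 5 WT and 5 Ndrg3 LKO. Per the paper's methods, the authors used a stranded mRNA kit with paired-end reads, mapped them to mm9 and counted reads per gene with STAR; the submitters' processing notes list STAR 2.7.3a, Trim Galore 0.6.4, Cufflinks 2.2.1 and bcl2fastq. The annotation and strand setting are not given in the sources used here. The deposited values are raw counts, whole numbers despite file names that say CPM.

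Counts were tested with edgeR 4.0.16 (R 4.3.3), using TMM library sizes, a filter of 1 CPM or more in 5 or more livers (4 when a liver was left out), the quasi-likelihood test without covariates, Benjamini-Hochberg adjustment over all genes tested and a threshold of 0.05. Standard errors came from the F statistic of each gene. Exact permutation tests compared mean log2(CPM + 1), 2-sided, over all 252 ways to divide the livers. The tests were checked on simulated counts in which no single liver was set apart from its group. That check therefore does not cover a liver like Ndrg3 LKO replicate 5. Same-group livers (20 pairs) differed beyond sampling noise (chi-square per degree of freedom 27.2 to 543). The 3-count floor covers counting error only. Gene lengths are the joined exons of the GENCODE annotation of NCBIM37.

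The genes named are the 9 enzymes, the 3 largest rises and falls among called genes of the pathway list, relatives or pathway neighbours of the enzymes, *Ndrg3* and the nearest gene of each enzyme. The enzymes and all lists were chosen with earlier results of these data known. Alternatives were median-of-ratios, library-size and quantile scaling, DESeq2 1.42.0, limma 3.58.1 with pseudocounts of 1 and 5, no filter, a mean CPM of at least 5, a replicate block, and each liver left out. The metabolome was not analysed here, and results on some genes of the pathway list are not reported here.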

Additional observations from a re-analysis of the deposited data

Results flagged for a closer look

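In each group of 5 livers, the gap between an extreme liver and its nearest neighbour was divided by the range of the group. Of 18 groups (9 enzymes in 2 genotypes), 6 exceeded Dixon's 95% critical value of 0.71, where chance gives about 1 group in 20. In each of the 6 the extreme liver was Ndrg3 LKO replicate 5, so they are not independent. The ratio was 0.968 for *Hal* (322 CPM), 0.960 for *Sds* (1849 CPM), 0.887 for *Tdo2* (2083 CPM), 0.792 for *Tat* (5016 CPM), 0.750 for *Fah* (744 CPM) and 0.724 for *Gls2* (871 CPM). *Hpd*, *Hgd* and *Kynu* in Ndrg3 LKO livers and all 9 enzymes in WT livers stayed under it. The cause was not tested.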

How the results depend on the processing

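The direction of *Tat*, *Hpd*, *Hgd*, *Fah*, *Tdo2*, *Kynu*, *Hal* and *Ndrg3* was lower, and that of *Gls2* higher, under each alternative that gave a value. *Hpd* did not pass with quantile scaling (-0.40). *Hgd* was close to 0 with library-size scaling (-0.098, edgeR adjusted p = 0.650, or -0.66 relative to the median of all genes). With quantile scaling *Hgd* was at -0.29 (limma adjusted p = 0.216). Library-size scaling left 3 enzymes without overlap between the groups, against 4 with TMM. Ndrg3 LKO replicate 5 decided most of what changed. When livers were dropped 1 at a time, the number of enzymes called ranged from 5 to 8 and the number without overlap from 4 to 8, with 8 in both cases without that replicate, and called genes ranged from 4703 to 6360. The log2 fold change of *Sds* ranged from -1.96 without Ndrg3 LKO replicate 5 to 0.12 without replicate 2, and was above 0 without replicates 1 (0.077), 3 (0.11) and 4 (0.088) and with library-size scaling (0.094, or -0.47 relative to the median of all genes). That scaling split the called genes into 5834 higher and 1005 lower, against 2865 and 2578 with TMM. *Hal* was called with quantile scaling (-2.90) and with limma (-3.03 and -2.80 for pseudocounts of 1 and 5), *Hgd* with DESeq2 (-0.57, adjusted p = 0.0392) and limma (-0.65 and -0.64). DESeq2 gave no adjusted p for *Hal* and *Sds*. Labels and methods do not pair the livers, and deviations of same-numbered livers correlated between -0.357 and 0.0363. A replicate block gave 4412 called genes and 6 called enzymes, with *Hal* at -3.37 (edgeR adjusted p = 0.00993). Depth did not limit the 9 enzymes, whose lowest count was 479.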
